A study of Homo sapiens with 2 samples.

Results

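Oligoadenylate synthetases are antiviral enzymes that sense double-stranded RNA, and ABCE1 is an ABC protein of ribosome recycling that was also linked to their pathway. The 5 genes described here are OAS1, OAS2, OAS3, OASL and ABCE1. They were taken as the probe sets whose only gene symbol in the platform annotation was one of these names, which gave 11 probe sets of 41091 with a single symbol, and 5 genes of 19775. No probe set with several symbols included a member.

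The cells were hTERT-RPE1, a human line from the retinal pigment epithelium, made immortal by telomerase and kept in medium with serum and hygromycin B. One group received a control oligo and the other a miR-129-3p oligo (control and miR-129-3p overexpression in the labels), both by lipid transfection with RNAiMAX. RNA was taken 72 h later and read on 1 Affymetrix 3′ expression array per group, from 100 ng of total RNA each. With n = 1 per group no value has a replicate error, no difference was tested, and each difference compares these 2 arrays, not the conditions. In RNA from a whole culture, fewer cells with a transcript and less of it per cell cannot be told apart.

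In the pathway, double-stranded RNA binds an OAS enzyme, which then joins ATP into short chains of adenylate with an unusual linkage, called 2-5A. These chains are the second messenger of the pathway and lead to the breakdown of RNA of the virus and of the cell. OAS1, OAS2 and OAS3 carry 1, 2 and 3 copies of the same OAS unit, and OASL has such a unit without the synthetase activity, joined to ubiquitin-like repeats. The OAS genes are classical interferon-stimulated genes, whereas ABCE1 is known mainly as an essential factor that splits ribosomes after translation ends.

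The transfected microRNA is shown because the labels name it as the difference between the groups. The control oligo, whose sequence is not shown here, differs between the groups as well. The labels name miR-129-3p without the gene copy it comes from or the oligo's own letters, so both mature forms listed by RefSeq (GRCh38.p14) are given, with the seed, bases 2 to 8, in capitals. The first is encoded at chr7:128207920-128207941 and the second at chr11:43581450-43581471, both on the + strand.
hsa-miR-129-1-3p: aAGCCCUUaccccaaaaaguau
hsa-miR-129-2-3p: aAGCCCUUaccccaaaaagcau
Both forms are 22 bases long and share 1 seed. They differ by 1 substitution, U20C, counted from the 5′ end and written from the first form to the second. The microRNA's own level was not among the values used, and seed matches in the transcripts of the 5 genes were not analysed here.

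The promoters were looked up after the OAS genes had been seen to have higher signals with miR-129-3p on these arrays and ABCE1 not. Whether promoter motifs bear on that difference was not tested. Interferon acts through a transcription factor complex that binds the interferon-stimulated response element, built from repeats of GAAA. RefSeq's table (GRCh38.p14) held 3 of the 5 genes, and OAS2 and OASL were missing from it. The 250 bases before the start of each are printed 5′ to 3′, with letters matching GAAANNGAAA or GAAANGAAA, and the cyclic AMP response element TGACGTCA, in capitals. OAS1 lies at chr12:112906712-112906961, OAS3 at chr12:112938224-112938473 and ABCE1 at chr4:145098061-145098310, all on the + strand.
OAS1: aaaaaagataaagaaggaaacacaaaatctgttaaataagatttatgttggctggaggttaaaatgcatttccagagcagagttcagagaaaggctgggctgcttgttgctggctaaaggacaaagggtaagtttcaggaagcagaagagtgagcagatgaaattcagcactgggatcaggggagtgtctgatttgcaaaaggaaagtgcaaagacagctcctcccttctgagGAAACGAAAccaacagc
OAS3: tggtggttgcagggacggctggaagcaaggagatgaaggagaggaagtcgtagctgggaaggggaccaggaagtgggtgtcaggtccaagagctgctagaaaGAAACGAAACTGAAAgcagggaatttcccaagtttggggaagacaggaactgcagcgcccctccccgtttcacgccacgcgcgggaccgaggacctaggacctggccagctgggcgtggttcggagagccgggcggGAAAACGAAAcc
ABCE1: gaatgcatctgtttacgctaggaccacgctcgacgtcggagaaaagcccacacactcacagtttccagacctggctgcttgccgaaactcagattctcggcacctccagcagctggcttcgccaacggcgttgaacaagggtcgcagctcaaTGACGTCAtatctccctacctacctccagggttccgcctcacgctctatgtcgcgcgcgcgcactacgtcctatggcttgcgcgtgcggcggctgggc
The OAS1 window held GAAANGAAA once, at 17 to 9 bases before the start. The OAS3 window held GAAANNGAAA at 12 to 3 and at 143 to 134 bases before the start, and GAAANGAAA at 148 to 140, overlapping the farther of those matches. The ABCE1 window held neither of these motifs and held TGACGTCA at 98 to 91 bases before the start. Both strands were searched, and every match found was on the strand printed. Over 27305 RefSeq windows of the same length, 3.07% held GAAANNGAAA, 2.76% held GAAANGAAA, 5.61% held at least 1 of them and 1.77% held TGACGTCA. A match describes letters only; binding was not measured.

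All 4 OAS genes had higher signals with miR-129-3p, and ABCE1 had almost the same signal on both arrays. Signals were taken as log2(signal + 16), and differences are given as miR-129-3p minus control in those units, so that dim probe sets show less than their full change. Each gene stands by the probe set with its highest mean log2 level. By that rule 4 of the 5 genes were higher by 2-fold or more and 0 were lower by as much, while among the 12754 genes that reached a signal of 100 on the brighter array the shares were 7.83% higher and 4.56% lower by the same limit. OAS1, OAS3 and OASL were also at least 16-fold higher, as were 0.4% of all genes. All 5 genes passed the filter. The 4 OAS genes passed it on the miR-129-3p array, and only OAS2 and OAS3 had a probe set at 100 or more in control as well. For OAS1 and OASL the filter thus fixed the direction. Setting them beside the shares over all genes is a description and not a test. The median difference of the OAS genes was 5.87, and that of all 5 genes 5.31, against 0.03 over all genes above the filter.

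**Figure D1:**
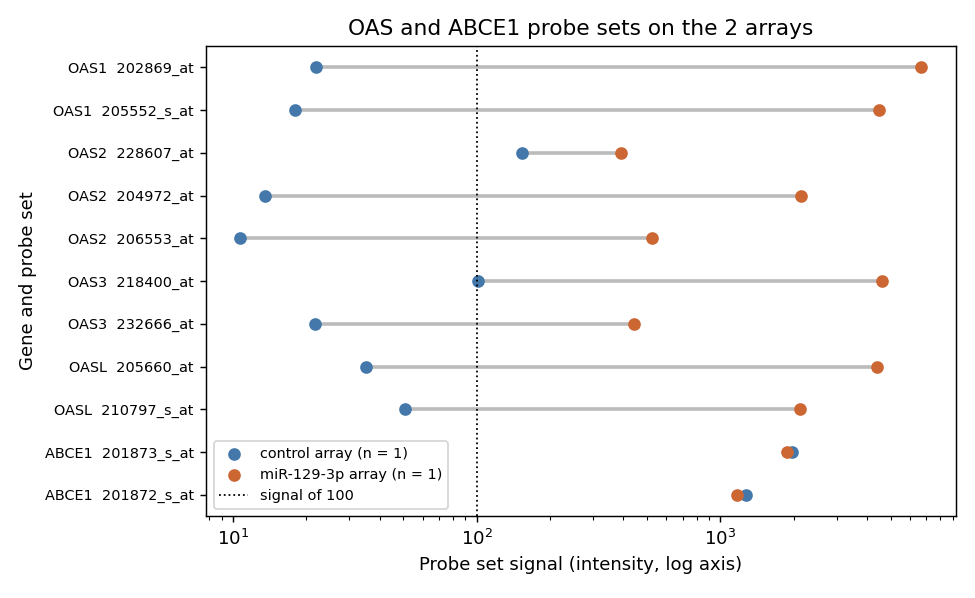
Signal of every OAS and ABCE1 probe set (vertical axis) on a log intensity axis, with blue points for the control array, orange points for the miR-129-3p array (n = 1 each) and a dotted line at 100. The 9 OAS pairs are far apart, except OAS2 228607_at at 153.81 and 389.49, while both ABCE1 pairs nearly coincide.

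OAS1 makes the smallest of the synthetases. Its brighter probe set, 202869_at, read 21.8 on the control array and 6689 on the miR-129-3p array, 7.47 apart on the log2 scale. Its other probe set, 205552_s_at, read 17.95 and 4498, a difference of 7.06. Both probe sets were near the bottom of the control array, where 12.0% of all 54613 probe sets read under 25, and bright on the other. Since a control signal this low has no stated detection call, a fold against a floor of 100 was computed as well: OAS1 was at least 66.9-fold higher on 202869_at and at least 45.0-fold on 205552_s_at.

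OAS3 makes the largest synthetase, which binds long double-stranded RNA. Probe set 218400_at read 101 in the control culture and 4627 with miR-129-3p, which differ by 5.31 in log2. Probe set 232666_at read 21.8 and 440, a difference of 3.59. Both were higher with miR-129-3p, and they differed from each other by 1.71, against a median range of 0.30 over the 6179 genes with several probe sets above the filter. The annotation lists the first with a RefSeq transcript of the gene and the second with another GenBank record. On 218400_at, which was at the filter value in control, the plain ratio of the signals was 45.7.

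OAS2 makes the synthetase with a pair of OAS units, and its 3 probe sets did not give a single value. Probe set 204972_at read 13.6 in the control culture and 2145 with miR-129-3p, which differ by 6.19 in log2. Probe set 206553_at read 10.7 and 522, a difference of 4.33. Probe set 228607_at read 153.81 and 389.49, a difference of 1.26. All 3 were higher with miR-129-3p, but the last had the smallest difference and was the only one at 100 or more in control. The annotation lists the first 2 with RefSeq transcripts of OAS2, and 228607_at with another GenBank record.

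The differences of the 3 OAS2 probe sets spanned 4.94, and 0.0324% of the 6179 genes with several probe sets above the filter, OAS2 included, spanned as much. By highest mean log2 level OAS2 stood by 228607_at, which exceeded 204972_at by only 0.05, so the value given for the gene rests on that choice. With OAS2 taken as the probe set of highest mean linear signal, a choice made after the values were seen, its difference was 6.19 and the OAS median 6.31. Against a floor of 100, OAS2 was at least 21.5-fold higher on 204972_at and at least 5.22-fold on 206553_at, and the plain ratio on 228607_at was 2.53.

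OASL, the relative without synthetase activity, is known to enhance signalling by the RNA sensor RIG-I. Its probe set 205660_at read 35.1 in the control culture and 4412 with miR-129-3p, which differ by 6.44 in log2. Its probe set 210797_s_at read 50.7 and 2118, a difference of 5.00. Both were under 100 in control and far above it with miR-129-3p. Against a floor of 100 they were at least 44.1-fold and at least 21.2-fold higher.

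Over the whole family, 9 of 9 OAS probe sets were at least 2-fold higher on the log2(signal + 16) scale. On that scale 7.55% of single-symbol probe sets above the filter were at least 2-fold higher. At least 16-fold higher were 7 of 9, or 6 of 9 with control signals set to a floor of 100. The 16-fold share was computed over genes only, 0.4% on the log2(signal + 16) scale, and not over all probe sets. In control 7 of the 9 read under 100 and 5 under 25, and with miR-129-3p all 9 read 100 or more. Those 7 passed the filter only on the miR-129-3p array, so the filter fixed their direction. The pooled SD between probe sets of 1 gene was 0.37, which says nothing of how cultures vary. Because 7 of the 9 control signals were dim, the OAS genes have no settled order of difference. Against the floor of 100 the brighter probe sets of OAS1, OAS3 and OASL gave at least 66.9-fold, 45.7-fold and at least 44.1-fold, and the other OAS1 probe set, at least 45.0-fold, lay between the last pair. No order of expression between genes is read from the signals, since each probe set binds with its own efficiency.

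**Figure D2:**
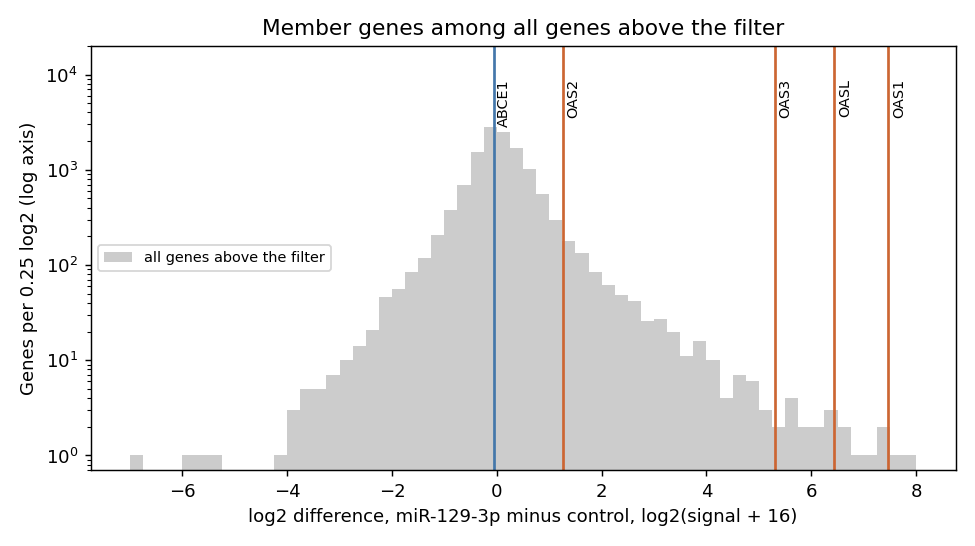
Number of genes above the filter (log axis) in each 0.25-wide bin of the log2 difference, miR-129-3p minus control, with vertical lines at the 5 members. OAS3, OASL and OAS1 lie in the thin right tail at 5.31, 6.44 and 7.47, OAS2 by 228607_at at 1.26, and ABCE1 in the central peak at -0.06.

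ABCE1 carries iron-sulfur clusters and splits ribosomes for reuse. Probe set 201873_s_at read 1961 in the control culture and 1876 with miR-129-3p, giving -0.06 in log2. Probe set 201872_s_at read 1280 and 1166, a difference of -0.13. Both were bright on both arrays and slightly lower with miR-129-3p, and both lay within the SD of 0.37 between probe sets of a gene. Of all genes above the filter, 11.8% had an absolute difference no larger than that of ABCE1. With 1 array per group, a difference between conditions of a size hidden by culture spread cannot be detected here.

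OAS1, OAS3 and OAS2 follow one another on chromosome 12 in the RefSeq gene order (GRCh38.p14), OASL lies elsewhere on the same chromosome, and ABCE1 is on chromosome 4. The protein-coding genes beside the OAS cluster did not have higher signals. PTPN11, a phosphatase, read 3915 and 2312 (-0.76). RPH3A, of synaptic vesicles, read 103 and 59.3 (-0.66). On the other side DTX1, a ubiquitin ligase of the Notch pathway, read 117 and 109 (-0.10). The 6 genes up to 3 places away, 5 of them above the filter, ranged from -0.76 to -0.10. RPH3A and DTX1, which flank the cluster, read near or under 100 on both arrays. Such dim readings cannot show where the high values end. Beside OASL, the ATP-gated channel gene P2RX7 was at -0.31, P2RX4 at 0.44, the protease gene SPPL3 at 0.58 and CAMKK2, a kinase, at -0.41. Beside ABCE1, ANAPC10, a subunit of the anaphase-promoting complex, was at 0.08, OTUD4, a deubiquitinase, at 0.49 and HHIP, a Hedgehog antagonist, at -2.11, with its 4 probe sets between -2.11 and -1.07.

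**Figure D3:**
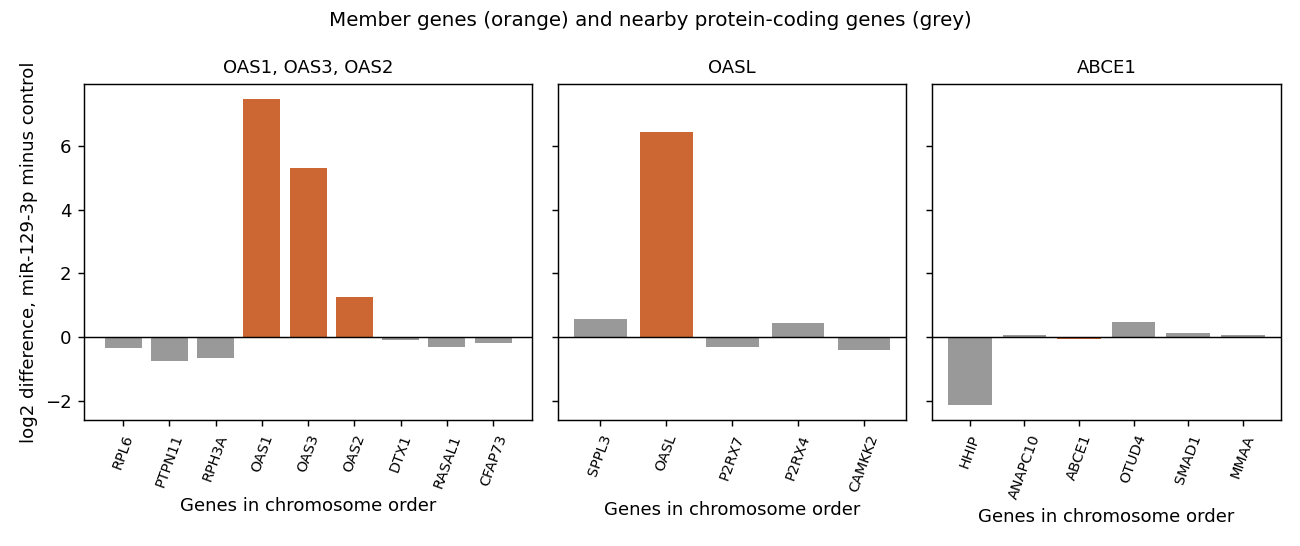
log2 difference, miR-129-3p minus control, for the members (orange bars) and nearby protein-coding genes that had a value (grey bars, up to 3 places away in chromosome order), 1 panel per locus. OAS1, OAS3 and OAS2 stand at 7.47, 5.31 and 1.26 between neighbours from -0.76 to -0.10, and OASL at 6.44 between neighbours from -0.41 to 0.58.

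For each member, the genes with the most similar pair of signals were found as the smallest distance between log2 signals, over 2 arrays only. The distance sets different probe sets side by side and, for OAS1 and OASL, uses control signals that were dim for the members and their matches alike, so it describes readings and not expression levels. For OAS1 these were IFI27 (24.1 and 7815) and MX1 (26.6 and 7544), both interferon-stimulated genes. For OASL they were BST2 (39.8 and 4760), which tethers budding virus, and the chemokine gene CCL5 (39.5 and 3580). For OAS3 they were RAB27B, a GTPase of secretory vesicles (104 and 4563), and EPSTI1 (107 and 3192). The other probe sets of RAB27B differed by 1.90 and 2.05, against 5.25 on the one used. For OAS2 by 228607_at they were KAZN, whose 4 probe sets differed by 1.25, 1.31, -0.22 and 0.67, and DHRS13 (1.27). For ABCE1 they were C1QBP (-0.06) and MSH6 (-0.04).

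Of the other genes that act on 2-5A or belong to the families that cleave it, 3 were measured. PDE12, a phosphodiesterase that degrades 2-5A, read 590 and 766, a log2 difference of 0.37, with its 4 probe sets between -0.15 and 0.37. AKAP7, an anchoring protein with a phosphodiesterase domain, read 181 and 399 on its brightest probe set, a difference of 1.07. Its other probe sets gave 0.01 and 0.08, so the higher signal rests on 1 of 3. CNP, a phosphodiesterase best known from myelin, read 2210 and 4649 (1.07), and 47.9 and 116 (1.04) on its other probe set. Thus 2 of the 3 measured were at least 2-fold higher, both only just past that limit, and 0 lower. This and the list counts that follow stand beside 7.83% higher and 4.56% lower over all genes above the filter.

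Other sensors of double-stranded RNA, listed with genes that act with them, ranged from -0.60 to 4.66. Of 9 measured, 6 were at least 2-fold higher and 0 lower, with a median of 1.77. TLR3, the endosomal receptor, read 104 and 3020 (4.66), and 2.78 to 4.66 over its 3 probe sets. IFIH1, which encodes MDA5, read 317 and 7457 (4.49), and 1.70 to 4.49 over its 3 probe sets. At the other end PRKRA, an activator of the kinase PKR, was at -0.60, with -0.09 on its other probe set. MAVS, the adaptor of RIG-I and MDA5, was at -0.43, and -0.53 to -0.02 over its 4 probe sets.

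Among signalling genes of the interferon response, 3 of the 8 measured, of 10 listed, were at least 2-fold higher and 0 lower, with a median of 0.42. IRF7, a transcription factor, read 201 and 3634 (4.07), and IRF9, the DNA-binding partner in the interferon-activated complex, read 1038 and 3956 (1.91). The receptor chain IFNAR1 was at -0.22, with its 4 probe sets between -0.22 and 0.11. The kinase JAK1 was at -0.30, with its 5 probe sets between -0.30 and 0.22. The ubiquitin-like interferon genes gave 4 of 4 measured at least 2-fold higher, of 6 listed, with a median of 5.38. They ranged from UBE2L6, the conjugating enzyme of ISG15 (3.54), to HERC5, its ligase (6.52). In control HERC5 read 56.4 and USP18 read 32.4, under the filter value of 100. Both passed the filter only on the miR-129-3p array, so the filter fixed their direction, and their dim control signals limit the size of their differences. In the list of cGAS, STING and nucleotidyltransferases, whose enzymes share a fold with the OAS proteins, 1 of 7 was at least 2-fold higher and 0 lower, a count too small to set apart from the 7.83% of all genes. That gene was STING1, the adaptor of cGAS, at 1.06, but its other probe set, at 0.91, fell short of 2-fold. CGAS, the DNA sensor closest to the OAS enzymes in mechanism, read 4198 and 4014 (-0.06).

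Genes that work with ABCE1 gave no call past 2-fold on the probe sets used, and lists of 9 to 11 genes would hold about as few at the shares over all genes, 7.83% higher and 4.56% lower. Ribosome recycling and release factors had 0 of 9 at least 2-fold higher and 0 lower, with a median of -0.18. PELO, which rescues stalled ribosomes with ABCE1, was at 0.72 and its partner HBS1L at -0.72, although probe sets of PELO ranged from -0.31 to 0.72 and those of HBS1L from -0.72 to 0.96. The cytosolic iron-sulfur assembly genes had 0 of 10 at least 2-fold higher and 0 lower (median 0.19), from NDOR1, an electron donor of that pathway (-0.13), to NUBP1, its scaffold (0.51). The eIF3 subunits had 0 of 11 past 2-fold in either direction and a median of -0.46, with EIF3F lowest at -0.94 and EIF3D highest at 0.26. The other probe set of EIF3H, at -1.14, was past 2-fold lower, against -0.46 on the one used; it is named after its value was seen. The ABCF proteins, soluble relatives of ABCE1, ranged from -0.29 for ABCF2 to 0.76 for ABCF3.

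**Figure D4:**
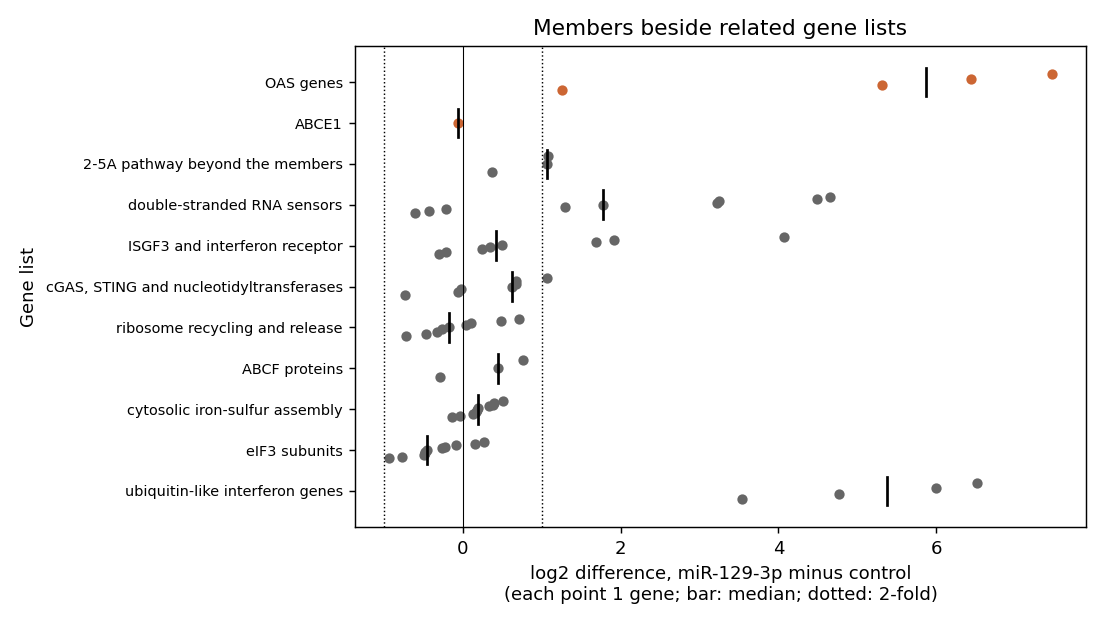
log2 difference, miR-129-3p minus control, of the OAS genes, ABCE1 (orange) and the measured genes of related lists (grey), with a bar at each median and dotted lines at 2-fold. The OAS median is 5.87 and that of the list named ubiquitin-like interferon genes, which includes ISG15 enzymes, 5.38. The genes around ABCE1 lie within 2-fold on the probe sets used.

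The arrays as a whole had similar signals, with medians of 96.5 and 98.0 over 54613 probe sets, and 51.1% of control signals were under 100. Retinal pigment epithelium markers were dim for 5 of 9 genes: RPE65, BEST1, RLBP1, TYR and LRAT were under 100 on both arrays. The 4 above the filter were OTX2 (1452 and 1625), MITF (2470 and 1020), PMEL (114 and 229) and TTR (91.0 and 110). Of those 4, 0 were at least 2-fold higher and 1 was lower, beside 4.56% lower over all genes above the filter. That gene was MITF at -1.26, with its 3 probe sets between -1.26 and -0.31. Blood cell markers, matched for 7 of 10, summed to 625 in control and 785 with miR-129-3p. Of these, 0 were at least 2-fold higher among the 2 above the filter, HBB at -0.12 and CSF1R at 0.71, and PTPRC, the pan-leukocyte marker, read 36.9 and 41.0.

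The probe set chosen and the constant added moved the size of the OAS differences more than scaling did. Over the 12 alternatives, OAS1 ranged from 5.85 to 8.19, OASL from 5.00 to 6.93, OAS3 from 4.45 to 5.50 and OAS2 from 1.17 to 6.19. ABCE1 ranged from -0.11 to -0.06 over the 11 alternatives that kept a probe set of it.

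**Figure D5:**
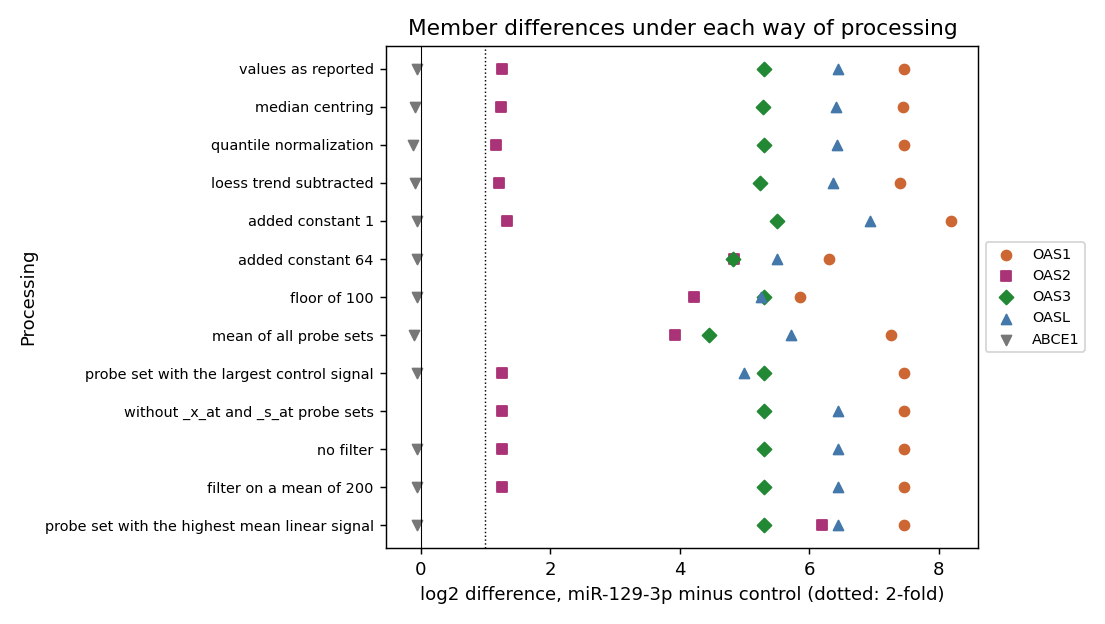
log2 difference of each member (horizontal axis; symbols as in the key) under each way of processing (vertical axis), with a dotted line at 2-fold. OAS2 moves from 1.26 to 6.19 with the probe set that stands for it, and ABCE1 stays between -0.11 and -0.06.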

How the data were processed

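The data are 2 arrays, 1 per group, grouped by the labels' genotype entry. The authors deposited 1 linear intensity per probe set and array. MAS5 and RMA appear in the submitters' processing notes with no version or role, so the method, background correction and scaling behind these intensities are not given in the sources used here, nor are detection calls.

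Of 54613 probe sets, 41091 had 1 symbol, 1801 had several and 11721 none in the platform annotation. Gene IDs of 41037 matched RefSeq's table, which gave current symbols. Intensities were taken as log2(value + 16); genes stood by the probe set of highest mean log2 level and counted as measured at 100 or more on the brighter array. The 2 arrays limit the precision, and no p-values were computed. Every probe set of a member is named, list genes at most 2 at each end, and similarity is the distance between log2 pairs. Neighbouring genes and promoter motifs were added after the members' values had been seen. The members and lists were chosen with earlier results of these data known. One gene of a list is not reported here. Code was tested on simulated data. Alternatives are given in the closing section. Tables were handled with pandas 2.3.3 and numpy 2.4.6 in Python 3.11.15, loess fitted with statsmodels 0.14.6 and plots drawn with matplotlib 3.10.9.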

Additional observations from a re-analysis of the deposited data

How the results depend on the processing

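The count of genes at least 2-fold higher was 4 with every alternative tried except the 4-fold limit, where it was 3. The count at least 2-fold lower was 0 throughout. These counts are out of 5 genes, or out of the 4 OAS genes where probe sets ending in _x_at or _s_at were left out. The OAS median of 5.87 became 5.16 with an added constant of 64, 5.28 with a floor of 100, 5.08 with the mean of all probe sets, 5.15 with the probe set of largest control signal and 6.31 with that of highest mean linear signal. The median of all 5 genes, 5.31, became 4.83 with the constant of 64, 4.45 with the mean of all probe sets, 5.87 without probe sets ending in _x_at or _s_at, which leaves ABCE1 without a value, and 6.19 with the highest mean linear signal. The last choice was made after seeing the data. OAS2 moved to 4.83 with the constant of 64 and to 4.22 with the floor, because another probe set then stood for it. Median centring, quantile normalization and loess moved neither median by more than the SD of 0.37 between probe sets. Dropping the filter, or filtering on a mean of 200, could not change the members' values. Each probe set was chosen before the filter, and every member passed both settings. No paired analysis was possible because each group holds 1 array, and no replicate could be left out. Control signals under 100 limit the size of the OAS differences, for which only lower bounds against that floor can be given.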
